A study of Homo sapiens with 39 samples.

Results

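U87-MG cells that had received a single dose of 8Gy were compared between day 4 and day 1 after irradiation, across all genes with a measurable signal. The members of this comparison are 6 of the 39 samples, the 3 replicates labelled 8Gy and d4 and the 3 labelled 8Gy and d1. U87-MG is an established human glioblastoma line. Its cells were plated overnight, exposed to 0, 8 or 16Gy from a cesium-137 source, and harvested on days 1, 4, 6 or 35, and controls (0Gy) were sham irradiated in parallel. All groups used here grew in the same serum-containing medium without other treatment, and replicate 1 of each short-term group is the mean of 2 technical runs. RNA was read on Illumina HumanHT-12 v4 bead arrays, and values are the deposited log2 signals, so that a log2 difference of 1 is a doubling. The comparison asks how cells given the lower dose moved with time, and the sham cultures over the same days are given beside it.

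A dose of this size stops most glioblastoma cells from dividing, and the arrested cells remain attached and metabolically active for days. Damaged and senescent cells are known to switch on a secretory program of interleukins, chemokines and proteases, which is driven in large part by the transcription factor NF-κB and by interleukin-1 acting back on the cells that release it. Growth to confluence by itself lowers the genes of DNA replication and mitosis, and falling glucose lowers TXNIP, an arrestin-like protein whose transcription follows glucose supply.

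The day 4 replicates were not equally far from day 1. Over the genes tested, day 4 replicate 3 differed from the 3 day 1 samples by a root mean square of 0.25 to 0.28 log2 units, which is no more than the 0.24 to 0.29 between day 1 replicates. Day 4 replicate 1 differed from them by 0.31 to 0.34 and day 4 replicate 2 by 0.36 to 0.41. Calls therefore depended on these libraries, and counts are given with and without them. All 10 markers of the line on a fixed list, among them VIM, CD44 and NES, were above background, whereas few markers of other cell types were: 3 of 8 for neurons, 3 of 8 for leukocytes, 1 of 7 for oligodendrocytes, 1 of 7 for epithelium, 1 of 6 for astrocytes and 1 of 6 for endothelium. None of these was called between the days, and the brightest, CD68, a lysosomal protein of macrophages and other cells, moved by 0.41 ± 0.12, while 2 further CD68 probes moved by 0.60 and 0.81. Signals above background numbered 18127 to 19483 probes in the 6 arrays. In bulk RNA a change in the share of cells that carry a transcript and a change of its amount per cell cannot be told apart.

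Below, a gene counts as called where limma gave an adjusted p (Benjamini-Hochberg, over all genes tested) under 0.10 and the change was over 1.5-fold. Of 11296 genes tested, 321 were called between day 1 and day 4 at 8Gy, which is 2.84% of them, and 1913 had an unadjusted p under 0.05. The calls were 225 genes higher on day 4 (1.99%) and 96 lower (0.850%). Each count of called list members below is to be read against these shares. The 3 samples of each day did not overlap in 2315 genes, 20.5% of those tested. The median change over all genes tested was -0.01 on the log2 scale. Without day 4 replicate 3 the count was 516, of which 60.7% were higher. Without day 4 replicate 2 it was 102, and these were 93 of the 225 higher and 9 of the 96 lower genes. It was 223 without day 4 replicate 1. Whichever of the 6 samples was left out, 85 of the 225 genes called higher and 9 of the 96 called lower kept their call, and below these are called stable. With 3 samples against 3, an exact permutation test of a single gene cannot go below p = 0.10, so all calls rest on the spread pooled over 9 groups.

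Sham cultures also changed over these days, with 717 genes called (6.35%; 3.59% higher and 2.76% lower), and 16Gy cultures had 471 calls (4.17%; 2.79% higher and 1.38% lower). These comparisons share no sample with the one at 8Gy. Of the 225 genes that rose at 8Gy, 89 also rose in sham cultures, 39.6% of the 8Gy calls and 22% of the 405 sham calls. At 16Gy, 180 of them rose, 80% of the 8Gy calls and 57.1% of the 315 calls at 16Gy. Of the 96 genes that fell at 8Gy, 65 also fell in sham cultures (67.7% and 20.8% of the respective calls) and 58 at 16Gy (60.4% and 37.2%), and no gene was called in opposite directions. The genes called higher at 8Gy had a median change of 0.80 there, 0.49 in sham and 0.90 in 16Gy cultures, and the genes called lower had medians of -0.70, -0.94 and -0.65. These genes were chosen on the 8Gy values, so their 8Gy medians are a description only. Across the 11296 genes the 8Gy change correlated with the sham change at a Pearson r of 0.62 (Spearman 0.56) and with the 16Gy change at 0.82 (0.69). This is a description across genes, which are not independent replicates.

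**Figure D1:**
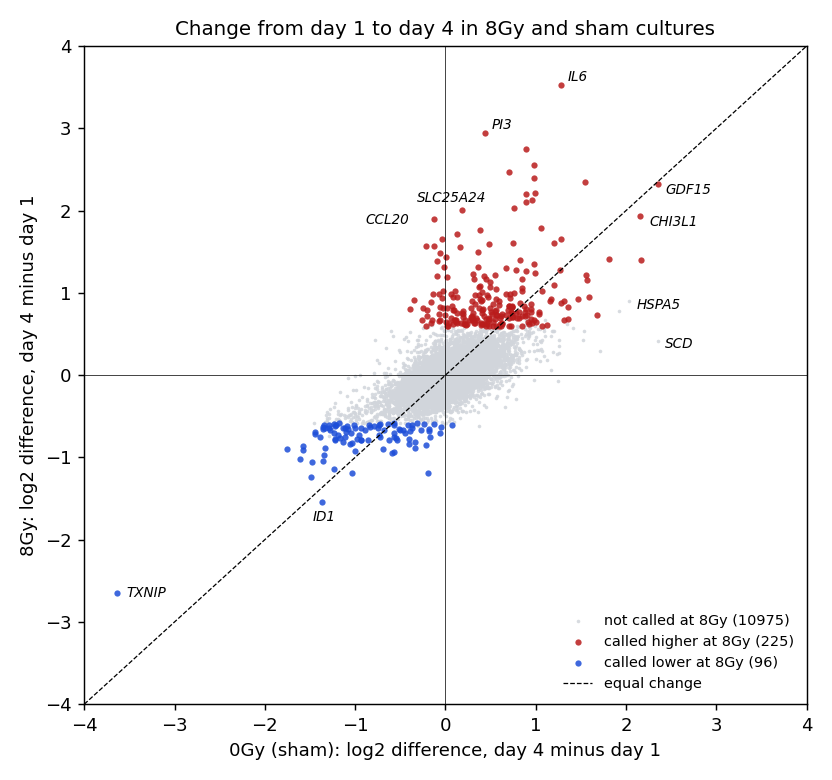
Each point is 1 of 11296 genes, with its log2 difference between day 4 and day 1 in sham cultures on the x axis and in 8Gy cultures on the y axis (means of 3 samples each), and the dashed line marks equal change. IL6 (3.53 at 8Gy, 1.28 in sham) and PI3 (2.94, 0.43) lie far above the line, GDF15 (2.33, 2.36) on it, and TXNIP (-2.64, -3.64), HSPA5 (0.90, 2.03) and SCD (0.41, 2.35) show the larger size of change on the sham axis.

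The largest rises were in secreted inflammatory genes. Among 12 chemokines tested, 9 rose at 8Gy and none fell, with a list median of 1.57 against -0.01 over all genes. The medians in sham and 16Gy cultures were -0.11 with 0 called and 2.47 with 9 called. Of the 9 rises, 7 were stable, and the exceptions were CXCL5 and CCL5. The count of rises was 7 without day 4 replicate 1, 8 without day 4 replicate 2 or day 1 replicate 1, and 9 otherwise.

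CXCL2, CXCL8 and CXCL1 encode chemokines that draw neutrophils through CXCR2 (and, for CXCL8, CXCR1). CXCL2 read 8.48, 8.21 and 8.27 on day 1 and 11.10, 11.14 and 10.38 on day 4. All 3 day 4 samples lay well above the day 1 samples, and replicate 3 was the lowest of them. The difference was 2.56 ± 0.40 (SE), a 5.88-fold rise, with an adjusted p of 0.000333. CXCL8, or interleukin-8, read 11.49, 11.65 and 11.38 on day 1 and 13.76, 14.46 and 13.48 on day 4, a 5.25-fold rise (2.39 ± 0.41, adjusted p = 0.000781). CXCL8 was also higher on day 4 in sham cultures, without a call. Its 8Gy change exceeded its sham change by 1.42 ± 0.58, and limma did not call that difference (adjusted p = 0.449). In day 4 replicate 2 no probe on the array was brighter than that of CXCL8, so this sample stood at the top of the quantile-normalized scale. A dimmer CXCL8 probe, above background in all 6 samples, rose by more, from a mean of 10.24 to 13.52 (3.28). CXCL1 was near background on day 1 (7.17, 7.56 and 7.38) and read 9.40, 8.82 and 8.61 on day 4 (1.57 ± 0.25, adjusted p = 0.000335).

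CCL20, the ligand of CCR6, stayed near or under background in sham cultures (6.98, 7.13 and 6.17 on day 4). At 8Gy it read 6.79, 7.18 and 7.07 on day 1 and 8.87, 9.36 and 8.50 on day 4, without overlap (1.90 ± 0.27, adjusted p = 6.96e-05). Background lay between 6.78 and 6.89 in the short-term samples, and since the deposited values were not background-subtracted, folds of genes this dim are understated. CCL2, which attracts monocytes, rose from 8.26, 8.61 and 8.42 to 10.13, 11.50 and 10.06 (2.13 ± 0.40, adjusted p = 0.00193), with day 4 replicate 2 well above the other two. CCL3 (1.57 ± 0.30) and CCL3L3 (1.65 ± 0.30), macrophage inflammatory proteins encoded by near-identical copies whose probes may read each other's transcripts, and the smaller CXCL5 (0.72 ± 0.19) and CCL5 (0.67 ± 0.17) completed the calls. CCL8, CCL26 and CXCL14 were tested and not called. CCL8 was under background in all day 1 samples and at least 1.3-fold higher on day 4, with an adjusted p of 0.0199.

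In the interleukin-1 family 5 of 13 genes tested rose, all of them stable, and none fell. The list median was 0.37, against 0.06 in sham cultures (2 called higher) and 0.57 at 16Gy (6 called higher). Without the detection filter 5 of 17 rose with a median of 0.33, and of 5 above background in all 27 short-term samples 3 rose. IL1B, the main secreted interleukin-1, was already bright on day 1, at 12.05, 11.84 and 12.20, and read 13.87, 14.07 and 13.28 on day 4 (1.71 ± 0.28, 3.27-fold, adjusted p = 0.000373). In sham cultures it moved by 0.12 ± 0.28 over the same days. IL1A, the membrane-associated form, rose from 7.09, 7.43 and 7.39 to 8.56, 9.19 and 8.65, 2.82-fold (adjusted p = 0.000335). IL1RN, the receptor antagonist that blocks both, also rose, from 6.69, 6.95 and 7.04 to 8.40, 9.16 and 8.40 (1.76 ± 0.25, adjusted p = 8.45e-05).

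An agonist and its antagonist were both called in the IL-36 branch of the family too. IL36B, an agonist best known from skin, read 7.81, 8.09 and 8.11 on day 1 and 10.23, 10.90 and 9.53 on day 4 (2.22 ± 0.28, adjusted p = 4.56e-05). Its antagonist IL36RN read 7.57, 7.75 and 7.85, then 9.98, 10.64 and 9.16 (2.20 ± 0.31, adjusted p = 6.96e-05). IL36B and IL36RN also rose in sham cultures, by 0.99 ± 0.28 and 0.89 ± 0.31. The difference between the 8Gy and sham changes was 1.23 for IL36B and 1.31 for IL36RN. Neither passed the test of that difference in the fit without a replicate block (adjusted p = 0.274 and 0.302). IL33, IL1F10 and IL1RL1, the receptor of IL-33, were dim and not called, with changes of 0.37 to 0.39.

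**Figure D2:**
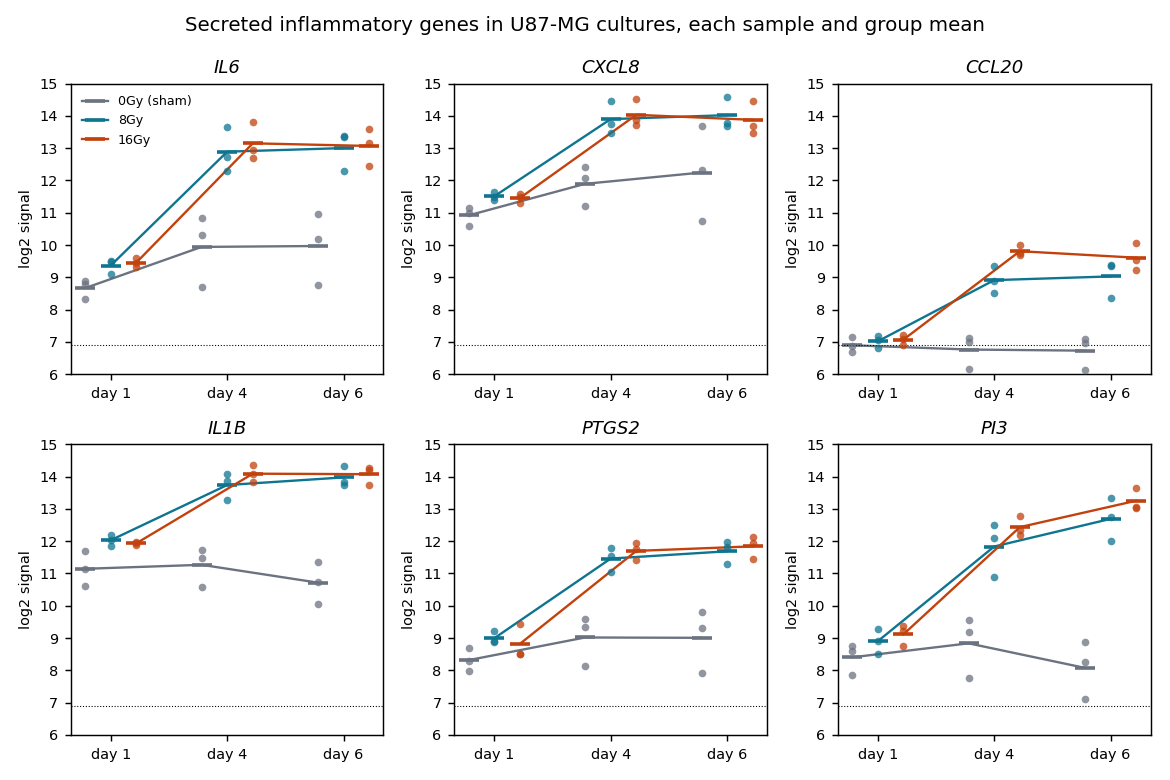
Log2 signal (y axis) of 6 secreted or enzyme-coding inflammatory genes on days 1, 4 and 6 (x axis) at 0, 8 and 16Gy. Points are samples, bars joined by lines are means of 3, and the dotted line is the highest background of the short-term samples (6.89). In each panel the 3 samples at 8Gy on day 4 lie above the 3 on day 1, and the day 6 mean differs from the day 4 mean by 0.11 (IL6) to 0.86 (PI3).

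Among 26 other cytokines and growth factors, 8 rose and 3 fell (list median 0.39, sham -0.08, 16Gy 0.63). IL6, the cytokine that signals through gp130 and STAT3, had the largest rise of all genes. It read 9.11, 9.49 and 9.49 on day 1 and 12.74, 13.64 and 12.29 on day 4, an 11.5-fold rise (3.53 ± 0.44, adjusted p = 4.56e-05). It also rose in sham cultures, by 1.28 ± 0.44, where day 4 replicate 3 (8.69) stayed at the day 1 level and the other replicates read 10.84 and 10.30. LIF, which shares gp130 with IL-6, rose by 1.49 ± 0.25 (day 4 samples 9.60, 9.84 and 8.70) against -0.06 ± 0.25 in sham. CSF3, or G-CSF, which drives neutrophil production, rose from 8.41, 8.31 and 8.60 to 11.38, 11.84 and 10.35 (2.75 ± 0.37, adjusted p = 6.96e-05). CSF3 was also higher on day 4 in sham cultures. Its 8Gy change exceeded its sham change by 1.86 ± 0.53, which limma did not call in the fit of all groups without a replicate block (adjusted p = 0.188). IL24, an interleukin-10 relative, rose by 1.31 ± 0.21.

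GDF15, a stress-induced hormone of the TGF-β superfamily, differed from these in its sham values. At 8Gy it rose from 10.07, 10.14 and 10.42 to 12.69, 12.92 and 12.00 (2.33 ± 0.35), and in sham cultures by 2.36 ± 0.35. FGF2 (0.91 ± 0.24), BMP2 (0.74 ± 0.16) and the EGFR ligand EREG (0.67 ± 0.22) were the smaller rises. The 3 falls were TGFA, another EGFR ligand (-0.76 ± 0.20), the angiogenic PGF (-0.79 ± 0.18) and the lipase inhibitor ANGPTL4 (-1.19 ± 0.30, from 11.40, 11.19 and 10.68 to 10.04, 9.35 and 10.30). Dimmer ANGPTL4 probes, above background in 6 and 5 of the samples, moved by only -0.38 and -0.19. Of these 11 calls, IL6, LIF, CSF3, IL24, GDF15 and PGF were stable. Without day 4 replicate 2 the adjusted p was 0.249 for FGF2, 0.143 for BMP2, 0.245 for TGFA and 0.249 for ANGPTL4.

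The NF-κB list holds subunits of the factor, the inhibitors it induces against itself, and direct targets, and 9 of 18 rose while 1 fell (median 0.47, sham 0.12 with 1 higher, 16Gy 0.59 with 9 higher). SOD2, the mitochondrial superoxide dismutase and a classic NF-κB target, rose from 9.74, 9.87 and 10.10 to 11.75, 12.57 and 11.47 (2.03 ± 0.29, 4.09-fold, adjusted p = 6.96e-05). NFKBIZ, a nuclear IκB protein needed for IL6 induction, read 9.12, 9.20 and 9.26, then 10.58, 11.17 and 10.61 (1.59 ± 0.25). Another NFKBIZ probe, close to background, moved by 0.20. The feedback inhibitors TNFAIP3, or A20, and NFKBIA, or IκBα, rose by 1.07 ± 0.18 and 0.90 ± 0.17. NFKBIA was the most even of them, at 11.62, 11.63 and 11.57 on day 1 and 12.56, 12.50 and 12.44 on day 4. IRAK2, a kinase of the interleukin-1 receptor pathway (0.74 ± 0.16), IER3 (0.76 ± 0.19), TNIP1 (0.67 ± 0.19) and the subunits NFKB1 (0.63 ± 0.17) and RELB (0.60 ± 0.16) were also called. BIRC2, an inhibitor of the alternative NF-κB route, fell from 10.13, 10.43 and 9.66 to 9.16, 8.73 and 9.20 (-1.04 ± 0.23), and by 1.35 ± 0.23 in sham cultures. SOD2, NFKBIZ, TNFAIP3, NFKBIA and IRAK2 were stable. Without day 4 replicate 2 the list had 5 rises and no fall, and BIRC2 then had an adjusted p of 0.115.

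Promoter sequence was read for these genes because they rose together. A written form of the κB element that NF-κB binds (GGGA, any base, TT, any base, CC) was searched on both strands in the 250 bases before each RefSeq gene start (GRCh38.p14). It was found in 348 of 27305 promoters (1.3%), in 123 of the 9132 tested genes that have a promoter in the table (1.3%), in 14 of 154 genes called higher (9.1%) and in 1 of 79 called lower (1.3%). Among the called members with a promoter, it was found in 3 of 7 chemokines, 4 of 7 genes of the NF-κB list and 0 of 4 of the interleukin-1 family. CXCL8, CCL20, PTGS2, SOD2 and TNIP1 were called higher and had no match. A match is a description of the letters, not of binding, and other written forms of the element were not searched. The following promoters belong to genes of the rises above and were chosen after their matches were seen, with the match in capitals. Not all of the 14 genes called higher with a match are shown or named. In the 5 promoters shown the match starts 67 to 81 bases before the gene start. In NFKB1, CXCL5 and NFKBIZ, which were called and are not shown, it starts 49, 91 and 223 bases before the gene start. In CXCL1 and CXCL2, neighbours on chromosome 4, it reads the same, GGGAATTTCC, and in NFKBIA and TNFAIP3 it lies on the opposite strand.
CXCL1 (chr4:73869143-73869392, plus strand): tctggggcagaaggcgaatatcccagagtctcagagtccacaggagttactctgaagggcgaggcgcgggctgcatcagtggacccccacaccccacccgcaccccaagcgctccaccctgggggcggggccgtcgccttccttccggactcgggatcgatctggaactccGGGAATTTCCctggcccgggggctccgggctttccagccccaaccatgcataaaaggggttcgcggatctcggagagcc
CXCL2 (chr4:74099196-74099445, minus strand): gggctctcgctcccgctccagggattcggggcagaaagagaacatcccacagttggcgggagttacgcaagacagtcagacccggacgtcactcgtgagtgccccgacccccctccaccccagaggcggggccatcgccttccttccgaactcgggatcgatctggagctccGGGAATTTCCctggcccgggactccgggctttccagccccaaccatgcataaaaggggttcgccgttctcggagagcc
IL6 (chr7:22726950-22727199, plus strand): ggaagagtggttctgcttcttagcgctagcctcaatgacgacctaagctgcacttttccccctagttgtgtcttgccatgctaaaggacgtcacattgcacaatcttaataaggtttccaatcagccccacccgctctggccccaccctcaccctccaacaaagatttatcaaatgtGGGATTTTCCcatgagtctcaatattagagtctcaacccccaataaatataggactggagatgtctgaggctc
NFKBIA (chr14:35404750-35404999, minus strand): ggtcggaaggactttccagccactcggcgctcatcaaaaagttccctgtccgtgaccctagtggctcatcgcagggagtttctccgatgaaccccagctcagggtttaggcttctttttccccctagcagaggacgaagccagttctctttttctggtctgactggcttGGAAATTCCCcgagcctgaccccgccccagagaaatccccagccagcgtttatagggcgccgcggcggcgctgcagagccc
TNFAIP3 (chr6:137867009-137867258, plus strand): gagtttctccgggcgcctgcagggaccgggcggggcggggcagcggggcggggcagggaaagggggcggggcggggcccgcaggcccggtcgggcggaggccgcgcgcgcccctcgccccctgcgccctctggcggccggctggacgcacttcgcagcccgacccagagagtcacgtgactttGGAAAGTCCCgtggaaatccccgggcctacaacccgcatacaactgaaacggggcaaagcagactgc

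Among 7 genes of prostaglandin synthesis 2 rose and none fell, and the list median was 0.01 (sham 0.16, 16Gy 0.03). PTGS2, or cyclooxygenase-2, read 8.87, 9.21 and 8.90 on day 1 and 11.55, 11.80 and 11.04 on day 4 (2.47 ± 0.35, 5.54-fold, adjusted p = 6.96e-05). PTGES, the synthase that acts after it, read 9.58, 10.02 and 9.56, then 11.36, 11.72 and 10.76 (1.56 ± 0.26). Both calls were stable, and the other genes of the list, among them PTGES2 (-0.13 ± 0.19) and PTGES3 (-0.24 ± 0.20), were not called. PTGS2 was also higher on day 4 in sham cultures, without a call. Its 8Gy change exceeded its sham change by 1.77 ± 0.49, which limma did not call in the fit of all groups (adjusted p = 0.185). With only the 4 groups of the comparison that difference was called (adjusted p = 0.0689). Of 25 proteases and inhibitors 8 rose and none fell (median 0.38, sham 0.13 with 5 higher and 1 lower, 16Gy 0.39 with 9 higher). PI3, or elafin, a secreted inhibitor of neutrophil elastase, rose from 8.90, 9.28 and 8.51 to 12.11, 12.52 and 10.88, which is 7.65-fold (2.94 ± 0.41, adjusted p = 6.96e-05). Day 4 replicate 3 was its lowest day 4 sample and still above all of day 1. MMP3, or stromelysin-1, rose from 11.83, 11.54 and 11.17 to 12.79, 13.20 and 12.70 (1.39 ± 0.29), and ADAMTS1 by 0.99 ± 0.18. PI3, MMP3 and ADAMTS1 were stable, whereas CTSK, MMP12, TIMP2, TIMP3 and ADAMTS5 were not, and the list had 5 rises without day 4 replicate 1 and 3 without day 4 replicate 2. MMP1 (0.48 ± 0.22) and TIMP1 (0.57 ± 0.13) were not called.

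Genes of mitosis fell. All 44 tested were lower on day 4, 17 of them were called (38.6% of the list, against 0.850% of all genes), and the median was -0.53. In sham cultures 42 of the 44 were called lower with a median of -1.17, and at 16Gy 15 were, with a median of -0.50. The sham change lay below the 8Gy change in all 44 genes, and no gene of the list was called in the test of that difference (1, CKAP2L, with only the 4 groups of the comparison). The levels of the list show where the doses stood. Its median signal was 8.84 to 9.05 in the 3 day 1 samples at 8Gy and 9.33 to 9.54 in the 3 sham samples. On day 4 it was 8.18 to 8.64 at 8Gy, with replicate 3 the highest, and 7.91 to 8.42 in sham. The groups of the 2 days did not overlap at either dose.

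ASPM, a spindle-pole protein, had the largest fall of the list, from 9.63, 9.96 and 9.64 to 8.79, 8.15 and 9.35 (-0.97 ± 0.23, 1.97-fold lower, adjusted p = 0.0164). KIF20A, a kinesin of cytokinesis, read 10.14, 10.05 and 10.03, then 8.98, 8.96 and 9.70 (-0.86 ± 0.21). BIRC5, or survivin, fell from 10.96, 10.52 and 10.41 to 9.99, 9.48 and 9.98 (-0.81 ± 0.23). In ASPM and KIF20A the first and second day 4 replicates were low and replicate 3 was the nearest to day 1. The kinase genes NEK2 (-0.77 ± 0.23), CDK1 (-0.70 ± 0.19), PLK1 (-0.62 ± 0.18) and AURKA (-0.61 ± 0.17), the kinetochore motor CENPE (-0.75 ± 0.18), the spindle genes NUSAP1 (-0.72 ± 0.18), TPX2 (-0.66 ± 0.21) and HMMR (-0.72 ± 0.20), and the cyclin CCNB2 (-0.66 ± 0.19) were also called. TOP2A (-0.57 ± 0.16), DLGAP5 (-0.57 ± 0.21) and PTTG1 (-0.57 ± 0.17) were not. AURKB, the chromosomal passenger kinase, was already called lower at 8Gy than in sham on day 1 (-0.85, adjusted p = 0.0722), where 6 genes were called (0.0531%) and this was the 1 lower (0.00885%). It moved by -0.21 ± 0.18 at 8Gy and by -1.17 ± 0.18 in sham. None of the 17 calls was stable. The count was 28 without day 4 replicate 3, 10 without day 1 replicate 1, 8 without day 1 replicate 2, 5 without day 4 replicate 1 and 0 without day 4 replicate 2, where the adjusted p of ASPM was 0.25.

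**Figure D3:**
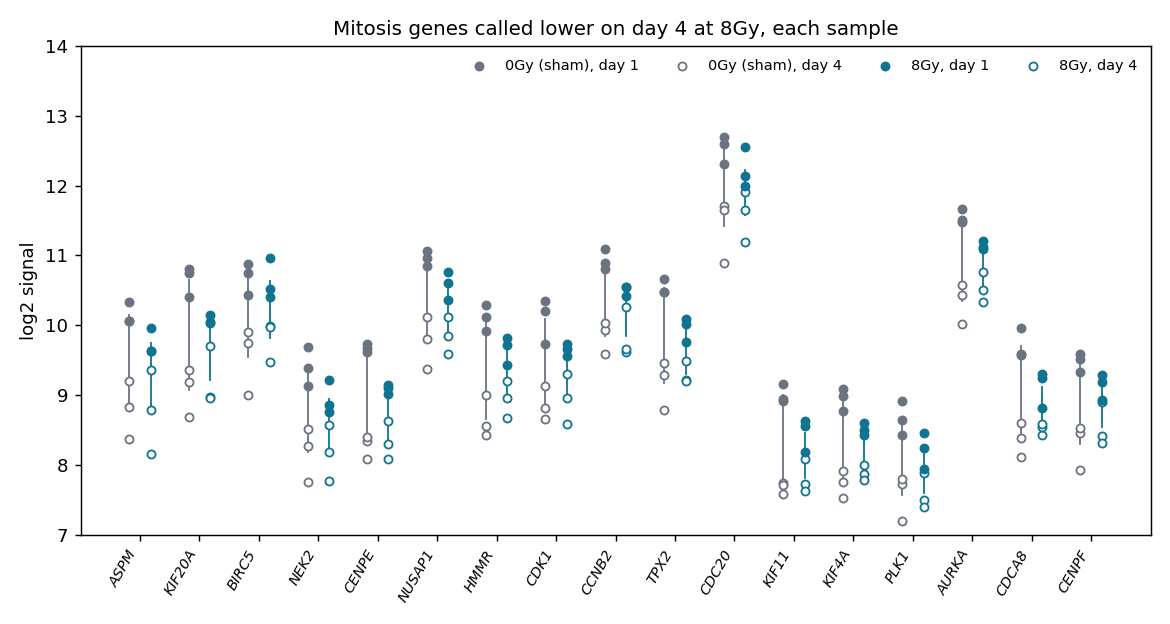
Log2 signal (y axis) of the 17 mitosis genes called lower at 8Gy (x axis), with each of 3 samples per group on day 1 (filled) and day 4 (open) for sham and 8Gy cultures, and a line from the day 1 to the day 4 mean. ASPM moved by -0.97 at 8Gy and -1.35 in sham cultures, and in all 17 genes the sham change was the larger.

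The promoters of mitosis genes were searched for TTTGAA, the letters of the cell cycle genes homology region (CHR) through which the DREAM complex holds such genes down in resting cells, and for CCAAT, the box bound by NF-Y. CHR letters were found in 3704 of 27305 promoters (13.6%), in 9.0% of those of tested genes, in 22 of 79 genes called lower (27.8%), in 18 of 154 called higher (11.7%) and in 9 of 14 called mitosis genes (64.3%). CCAAT was found in 33.0% of all promoters and in 13 of the 14 (92.9%). Over the 38 tested mitosis genes with a promoter the shares were 55.3% and 76.3%, compared with 64.3% and 92.9% of the called ones. Of 7 called DNA replication genes with a promoter none had TTTGAA and 5 had CCAAT. The promoters shown are those of ASPM, the largest fall, and of HMMR, CCNB2 and PLK1, which were chosen after their values and matches were seen and carry the letters within 29 bases of the start. In ASPM the match lies 113 bases before the start on the opposite strand, and HMMR has 2 adjacent copies.
ASPM (chr1:197146670-197146919, minus strand): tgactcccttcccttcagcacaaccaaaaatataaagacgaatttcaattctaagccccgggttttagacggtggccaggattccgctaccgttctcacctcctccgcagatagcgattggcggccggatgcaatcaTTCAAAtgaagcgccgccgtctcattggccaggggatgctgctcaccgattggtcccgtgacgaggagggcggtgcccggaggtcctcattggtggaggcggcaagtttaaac
HMMR (chr5:163460382-163460631, plus strand): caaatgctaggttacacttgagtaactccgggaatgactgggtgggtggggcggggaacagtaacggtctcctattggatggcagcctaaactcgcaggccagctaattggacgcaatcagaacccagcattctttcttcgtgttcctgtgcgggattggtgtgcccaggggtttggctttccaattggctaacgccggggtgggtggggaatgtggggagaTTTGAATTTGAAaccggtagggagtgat
CCNB2 (chr15:59104896-59105145, plus strand): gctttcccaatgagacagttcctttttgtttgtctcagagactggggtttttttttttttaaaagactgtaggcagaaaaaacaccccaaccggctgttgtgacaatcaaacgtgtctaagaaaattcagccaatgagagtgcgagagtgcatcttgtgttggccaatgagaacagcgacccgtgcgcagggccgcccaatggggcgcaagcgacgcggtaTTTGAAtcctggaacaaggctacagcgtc
PLK1 (chr16:23678639-23678888, plus strand): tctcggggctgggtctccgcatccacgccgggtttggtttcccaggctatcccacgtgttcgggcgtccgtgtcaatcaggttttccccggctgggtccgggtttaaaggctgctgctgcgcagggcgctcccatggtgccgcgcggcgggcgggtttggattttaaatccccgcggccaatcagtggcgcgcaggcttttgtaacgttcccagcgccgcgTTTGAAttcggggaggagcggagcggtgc

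DNA replication genes moved less. Of 46 tested, 8 fell and none rose, with a median of -0.36 (sham -0.70 with 29 lower, 16Gy -0.34 with 8 lower). RRM2, the ribonucleotide reductase subunit that limits deoxynucleotide supply, fell from 9.76, 9.60 and 9.83 to 8.91, 8.50 and 9.07 (-0.90 ± 0.26, adjusted p = 0.0506). UHRF1, which helps in copying DNA methylation to new strands, fell from 11.38, 10.91 and 11.24 to 10.39, 9.98 and 10.68 (-0.83 ± 0.21). GINS2 (-0.79 ± 0.21), DUT (-0.75 ± 0.19), the licensing factor CDT1 (-0.63 ± 0.21), the helicase subunits MCM6 (-0.61 ± 0.16) and MCM4 (-0.61 ± 0.18) and the chromatin assembly factor CHAF1A (-0.61 ± 0.18) were the others. Dimmer DUT probes moved by -0.25 and -0.71. CCNA2, the S-phase cyclin, moved by -0.58 ± 0.20 and was not called, against -1.45 ± 0.20 in sham. None of the 8 calls was stable, and there were 16 without day 4 replicate 3, 5 without day 4 replicate 1, 0 without day 4 replicate 2 and 0 without day 1 replicate 1. Of 27 DNA repair genes only EXO1, an exonuclease of resection and mismatch repair, was called (-0.75 ± 0.19), and its adjusted p was 0.25 without day 4 replicate 2.

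TXNIP, which binds thioredoxin and restrains glucose uptake, had the largest fall of all genes. It read 12.08, 11.65 and 11.22 on day 1 and 8.35, 8.80 and 9.87 on day 4, 6.25-fold lower (-2.64 ± 0.50, adjusted p = 0.00185), and it was stable. Sham cultures fell by 3.64 ± 0.50 and 16Gy cultures by 1.61 ± 0.50, and the difference between 8Gy and sham was 0.99 ± 0.70 (adjusted p = 0.747). PODXL, a sialomucin of the cell surface, fell from 9.69, 9.82 and 9.85 to 8.20, 8.75 and 8.69 (-1.24 ± 0.22, adjusted p = 0.00127), and FGD3, an exchange factor of CDC42, by 1.14 ± 0.23. Both were stable and fell to a similar size in sham cultures (-1.48 ± 0.22 and -1.23 ± 0.23). SKA2 and NCAPG, a kinetochore and a condensin subunit outside the mitosis list, fell by 0.92 ± 0.19 and 0.91 ± 0.23. A dimmer SKA2 probe moved by -0.37. The hormone gene CGB1 (-1.05 ± 0.24), which shares sequence with CGB5, TAGLN, an actin-binding protein (-1.01 ± 0.32), the calcium-binding CRACR2B (-0.94 ± 0.24) and the estrogen receptor GPER1 (-0.89 ± 0.20) were among the largest falls whose days did not overlap. ST8SIA5 (-1.19) and IGF2BP3 (-0.95) were called as well, but their samples overlapped between the days, and they are named after their values were seen. SKA2, NCAPG, CGB1, TAGLN, CRACR2B and GPER1 lost their calls without day 4 replicate 2, with adjusted p between 0.125 and 0.32.

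In the TGF-β and BMP pathway 3 of 23 genes rose and 4 fell, with a median of 0.02. The falls were in the immediate targets of BMP signalling. ID1, an inhibitor of basic helix-loop-helix factors, read 13.34, 12.69 and 12.72 on day 1 and 11.18, 10.99 and 11.95 on day 4 (-1.55 ± 0.31, 2.92-fold lower, adjusted p = 0.00304). ID3 fell from 10.59, 10.28 and 10.60 to 9.44, 9.40 and 9.92 (-0.90 ± 0.21), ID2 by 0.66 ± 0.17 and SMAD6, the inhibitory SMAD, by 0.79 ± 0.23. ID1 and ID3 also fell in sham cultures (-1.37 ± 0.31 and -0.69 ± 0.21). Rises were seen in the ligand BMP2, in FST, or follistatin, which traps activins and BMPs (0.79 ± 0.16), and in the corepressor TGIF1 (0.99 ± 0.20). ID1, FST and TGIF1 were stable, and without day 4 replicate 2 the adjusted p was 0.124 for ID3, 0.11 for ID2 and 0.334 for SMAD6.

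Of 38 targets of ATF4 and tRNA synthetases, 8 rose at 8Gy and 20 in sham, with medians of 0.30 and 0.59, and 34 of the 38 had the larger change in sham. DDIT3, or CHOP, rose from 8.20, 8.56 and 9.09 to 10.34, 10.68 and 9.66 (1.61 ± 0.29, adjusted p = 0.00128). TRIB3, a pseudokinase, rose by 1.41 ± 0.28, NUPR1 by 1.40 ± 0.27, ATF3 by 1.31 ± 0.23, the amino acid transporter SLC3A2 by 1.16 ± 0.30 and ATF4 itself by 1.02 ± 0.24. ASNS, the asparagine synthetase, read 9.72, 9.97 and 10.14, then 11.42, 10.65 and 10.08 (0.78 ± 0.29, adjusted p = 0.146), with day 4 replicate 3 within the day 1 range, while in sham it rose by 1.93 ± 0.29. In the unfolded protein response 2 of 17 rose, DNAJB9 (0.90 ± 0.21) and XBP1 (0.68 ± 0.20), against 14 in sham, and all 17 had the larger change in sham (medians 0.29 and 0.87). HSPA5, the chaperone BiP, read 9.82, 10.08 and 10.10, then 11.43, 10.79 and 10.49 (0.90 ± 0.32, adjusted p = 0.112), against 2.03 ± 0.32 in sham. No gene of either list was called in the test of the difference, and with only its 4 groups DDIT4 and CBS of the ATF4 list were. DDIT3, TRIB3, NUPR1 and ATF3 were stable, ATF4 had an adjusted p of 0.104 without day 4 replicate 1, and SLC3A2, DNAJB9 and XBP1 had 0.197, 0.118 and 0.21 without day 4 replicate 2.

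LSS (0.75 ± 0.18), lanosterol synthase, was the single call among 19 cholesterol synthesis genes, and FADS1, a fatty acid desaturase (0.60 ± 0.19), among 13 of fatty acid synthesis, against 7 and 5 rises in sham. SCD, which makes monounsaturated fatty acids, read 10.67, 11.43 and 10.92 on day 1 and 11.93, 11.31 and 11.01 on day 4 at 8Gy, with overlap (0.41 ± 0.32, adjusted p = 0.547), and rose by 2.35 ± 0.32 in sham. The difference of -1.94 did not pass its test in the fit of all groups (adjusted p = 0.113) and did with only the 4 groups of the comparison (adjusted p = 0.0447). Of 17 NRF2 targets and aldo-keto reductases none was called at 8Gy, 5 rose in sham, and at 16Gy 5 fell and 1 rose. Lysosome and autophagy genes had 5 rises of 31 (median 0.29, sham 0.35 with 11): WIPI1 (0.93 ± 0.21), the cholesterol exporter NPC1 (0.86 ± 0.22), GABARAPL1 (0.84 ± 0.19), the peptidase TPP1 (0.83 ± 0.17) and the autophagy receptor SQSTM1 (0.72 ± 0.15). TPP1 and SQSTM1 were stable, while LSS, FADS1, WIPI1, NPC1 and GABARAPL1 lost their calls without day 4 replicate 2, with adjusted p of 0.121 to 0.391.

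**Figure D4:**
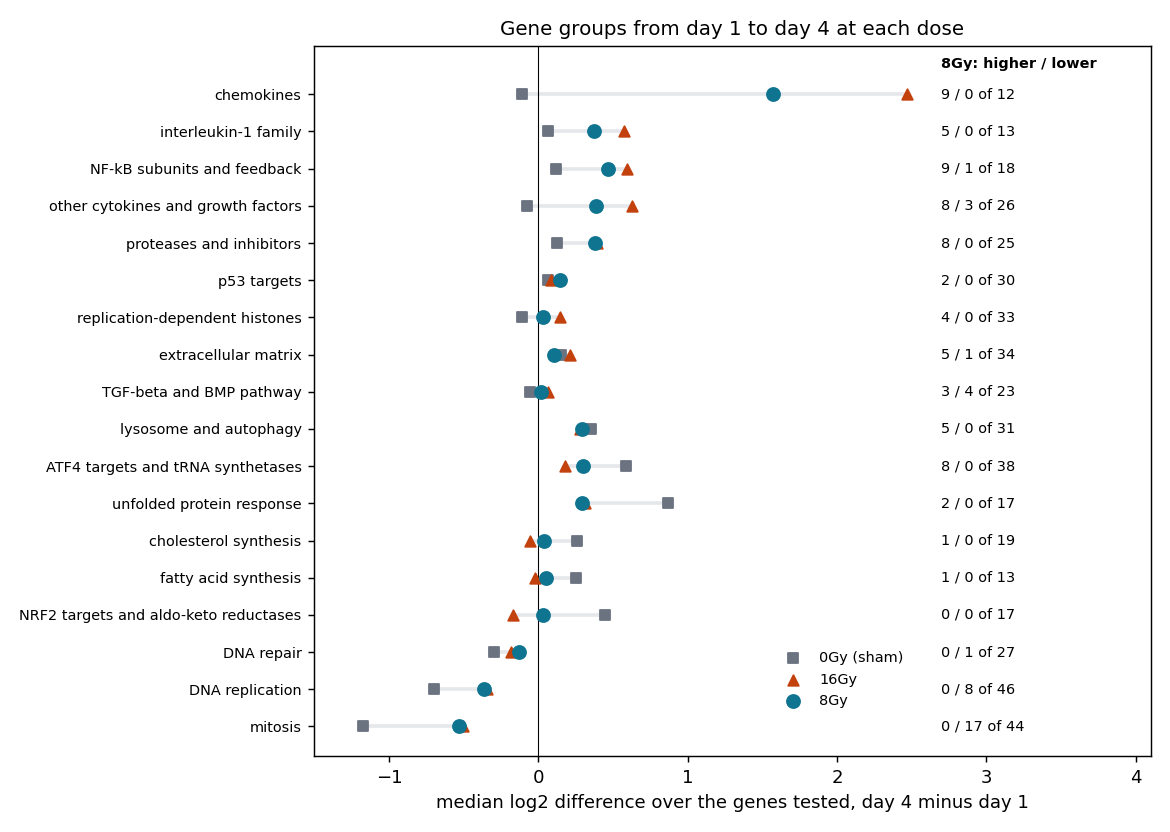
Median log2 difference between day 4 and day 1 (x axis) over the tested genes of 18 lists (y axis) at 0, 8 and 16Gy, with the number called higher and lower at 8Gy and the number tested on the right. At 8Gy the medians run from -0.53 (mitosis) to 1.57 (chemokines, 0.23 without the detection filter). The 8Gy and 16Gy medians lie on the same side of the sham median in all lists shown except extracellular matrix (0.11 at 8Gy, 0.21 at 16Gy and 0.15 in sham).

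Of 30 p53 targets 2 rose (6.7%, against 1.99% of all genes) and none fell, with a median of 0.15 (sham 0.06 with 1 higher). They were GDF15 and GADD45A, which binds PCNA and p21. GADD45A read 9.98, 10.10 and 10.17 on day 1 and 11.02, 11.04 and 11.01 on day 4 (0.94 ± 0.17, adjusted p = 0.00125), against -0.04 ± 0.17 in sham. CDKN1A, the p53-induced inhibitor of cyclin-dependent kinases, was bright from the start at 13.20, 13.21 and 12.99 and moved by 0.21 ± 0.12. It was among the 5 genes called higher at 8Gy than in sham on day 1 (0.0443% of those tested; difference 0.61, adjusted p = 0.07). Of 33 replication-dependent histone genes 4 rose (12.1%, against 1.99% of all genes) and none fell. The list median was 0.03, and 10 of the 33 were lower on day 4. In sham cultures none was called higher and 1 lower, with a median of -0.11. No gene of the list was called in the test of the difference from sham. With only the 4 groups of the comparison H2AC18 and H2AC20 were. H2AC18 read 9.83, 9.40 and 9.52, then 10.52, 10.81 and 10.48 (1.02 ± 0.22), and H2BC21 rose by 0.82 ± 0.16, H2AC20 by 0.80 ± 0.23 and H2AC19 by 0.79 ± 0.23. H2AC18 and H2AC19 are near-identical copies, so their probes are not independent. H2AC18 and H2BC21 were stable, and H2AC20 and H2AC19 had adjusted p of up to 0.287 and 0.294 with 1 sample left out.

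Matrix genes were mixed, with 5 rises and 1 fall among 34 (median 0.11), against 8 rises and 1 fall in sham (median 0.15). The small proteoglycan DCN, or decorin, rose from 8.10, 8.23 and 7.77 to 9.97, 10.59 and 9.84 (2.10 ± 0.28, 4.29-fold, adjusted p = 6.96e-05), and its relative LUM by 1.27 ± 0.25. THBS2 (0.75 ± 0.21), TNC (0.59 ± 0.17) and CCN3 (0.59 ± 0.18) rose and the collagen chain COL1A1 fell (-0.63 ± 0.19). Another TNC probe, also bright, moved by 0.29. DCN and LUM were stable and the other 4 were not, with adjusted p of up to 0.295 to 0.378 when 1 sample was left out. CHI3L1, a secreted glycoprotein and mesenchymal glioblastoma marker, rose from 9.29, 9.50 and 9.43 to 11.30, 11.95 and 10.76 (1.93 ± 0.31), and by 2.15 ± 0.31 in sham. C11orf96 rose by 2.35 ± 0.35 and SLC25A24, a mitochondrial ATP-magnesium carrier, by 2.01 ± 0.34 (7.71, 7.63 and 7.78, then 9.30, 10.43 and 9.41), against 0.18 ± 0.34 in sham. Another, dimmer probe of SLC25A24 moved by -0.11, so its rise rests on 1 probe. TGM2, transglutaminase 2, rose by 0.81 ± 0.18, and 1 of its 2 dimmer probes moved by -0.17.

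On day 4 itself, 193 genes differed between 8Gy and sham cultures (1.71%; 1.42% higher and 0.292% lower at 8Gy), a comparison that shares the day 4 samples. Whether the 8Gy change differed from the sham change was tested for each gene. The test called 5 of 11296 genes (0.0443%; 0.0266% with the larger 8Gy value and 0.0177% with the smaller), and 1037 had an unadjusted p under 0.05. CCL20 and CXCL1 had the larger change at 8Gy, with differences of 2.03 ± 0.38 (adjusted p = 0.0283) and 1.78 ± 0.35 (adjusted p = 0.0431). In sham cultures CCL20 moved by -0.13 ± 0.27 and CXCL1 by -0.21 ± 0.25. HAS3, a hyaluronan synthase, was under background in all 3 day 1 samples at 8Gy (6.79, 6.79 and 6.74) and read 7.34, 7.54 and 7.19 on day 4, at least 1.45-fold higher. Its difference from sham was 0.77 ± 0.15 (adjusted p = 0.0431), and its 8Gy change of 0.58 missed the 1.5-fold threshold by little.

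AKR1C3 and AKR1C2, aldo-keto reductases that reduce steroids and prostaglandins, differed the other way. AKR1C3 stayed level at 8Gy (10.77, 10.54 and 10.63, then 10.57, 10.49 and 10.69), while sham cultures rose from a mean of 10.09 to 11.34, so that the difference was -1.32 ± 0.22 (adjusted p = 0.0177). AKR1C2 moved by -0.07 ± 0.14 at 8Gy and 0.98 ± 0.14 in sham, a difference of -1.04 ± 0.19 (adjusted p = 0.0283). These genes are close copies, and their probes may not tell them apart. At 16Gy AKR1C3 and AKR1C2 fell by 0.69 ± 0.16 and 0.64 ± 0.14. The 5 calls were not stable, since no gene was called without sham day 4 replicate 3, in which CCL20 (6.17) and CXCL1 (6.35) were below the other sham samples of days 1 and 4. The count ranged up to 30, without sham day 4 replicate 2 or 8Gy day 4 replicate 3, and it was 46 when only the 4 groups of the comparison entered the fit. In the fit of all 9 groups the difference was 2.25 for IL6 (adjusted p = 0.185) and 2.50 for PI3 (adjusted p = 0.113), and with the 4 groups alone both were called (adjusted p = 0.0903 and 0.0616).

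**Figure D5:**
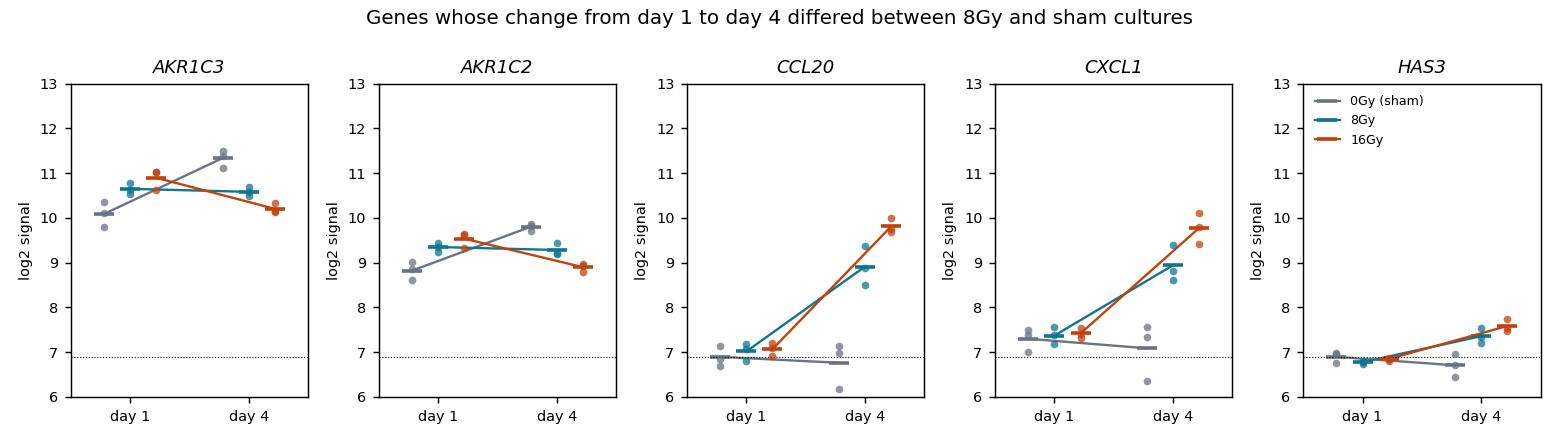
Log2 signal (y axis) of the 5 genes whose change from day 1 to day 4 (x axis) differed between 8Gy and sham cultures, with each sample as a point, bars joined by lines for means of 3, and the highest short-term background (6.89) dotted. AKR1C3 and AKR1C2 rose in sham cultures by 1.25 and 0.98 and moved by -0.07 at 8Gy, while CCL20 and CXCL1 rose at 8Gy by 1.90 and 1.57.

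No gene differed between the 8Gy and the 16Gy change (0 of 11296, with 320 at an unadjusted p under 0.05), and the standard error of that difference had a median of 0.19 log2 units. For IL6 the difference, 8Gy minus 16Gy, was -0.17 ± 0.63, for PI3 -0.39 ± 0.58, for CCL20 -0.84 ± 0.38 and for CCL3L3 -1.22 ± 0.42, all with an adjusted p of 1.0. Those intervals are wide, and equal responses are not shown by them. Between day 4 and day 6 at 8Gy, a comparison that shares the day 4 samples, 1 gene was called, higher on day 6 (0.00885%; 549 had an unadjusted p under 0.05). CXCL5, a further CXCR2 ligand, read 8.09, 7.58 and 7.26 on day 4 and 8.50, 9.18 and 8.45 on day 6 (1.06 ± 0.19, adjusted p = 0.0441), and its call was lost without day 4 replicate 2 (adjusted p = 0.48), day 4 replicate 3 (adjusted p = 0.551) or day 6 replicate 2 (adjusted p = 0.244). IL6 moved by 0.11 ± 0.44 and PI3 by 0.86 ± 0.41 from day 4 to day 6.

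Of 10 genes that the study names in its text on the arrays, 6 rose between the days at 8Gy. Besides IL1B, CXCL8 and PI3 they were C1QTNF1, a secreted adiponectin relative (1.06 ± 0.20), the GTPase RRAD (0.99 ± 0.31) and DDIT4L, an inhibitor of mTOR signalling (0.79 ± 0.20). These genes were chosen by the study on these samples, so their count is not independent evidence. The study called them against pre-irradiated controls, not between days, and it lists many more array genes in a table of functions. C1QTNF1 rose from 9.67, 9.83 and 9.39 to 10.69, 10.93 and 10.43 and was stable, whereas RRAD and DDIT4L had adjusted p of up to 0.355 and 0.259 with 1 sample left out. A dimmer C1QTNF1 probe, above background in all 6 samples, moved by 0.37, and another, above background in 3, by -0.06. The C1QTNF1 call therefore rests on 1 probe. IGFBP1 (0.31 ± 0.33) and CYSRT1 (-0.15 ± 0.19) were not called. No gene was called among 60 of the respiratory chain, 36 of ribosome biogenesis, 22 of the BCL2 family, 21 YAP targets and 8 IGF binding proteins, against 2.84% of all genes tested. At that share lists of this size would hold few or no calls, so these counts say little about their members. The medians of these lists lay between -0.09 and 0.13, except for the IGF binding proteins, where 7 of 8 were higher on day 4 with a median of 0.40 (sham 0.27). Of 39 interferon-stimulated genes IRF1 rose (0.60 ± 0.17) and SAMD9 fell (-0.79 ± 0.17), which is 2.6% each way. Of 35 hypoxia and glycolysis genes ADM rose (0.68 ± 0.18), which is 2.9%, and of 28 immediate early genes FOSB (0.64 ± 0.17) and ATF3 rose (7.1%). Over all genes 1.99% rose and 0.850% fell, so 1 call in a list of this size is close to that share.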

How the data were processed

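U87-MG RNA was read on Illumina HumanHT-12 v4 arrays. The deposited values are log2 signals, which the authors made in GenomeStudio and GenePattern by quantile normalization and log2 transformation, separately for the short-term and day 35 arrays, with ComBat batch adjustment of the short-term arrays. The batches are not given in the sources used here. The values were not background-subtracted, so folds of dim genes are understated, and adjustment before testing can make p-values too small. Another table of 96 columns (48 unnormalized arrays) could not be assigned to samples and was not used. Of 47300 probes, 30100 named 1 gene, 8 several and 17192 none.

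Background was the signal exceeded by a share of 0.05 of 455 olfactory receptor probes on each array. A gene was tested if its probe exceeded it in every sample of at least 1 of 12 groups, and its brightest probe was used (11296 of 20041 genes). The named genes had 91 other probes above background in at least 3 of the 6 samples compared. Of these, 31 moved under 1.5-fold where the chosen probe passed it, and 3 of them had the opposite sign. Not all of them are given above. limma 3.58.1 in R 4.3.3 was fitted to the 27 short-term samples as 9 group means, with an intensity trend and Benjamini-Hochberg adjustment. The procedure was tested on simulated data. The labels only number the replicates, and the study describes them as independent. The p-values measure the spread between replicates, and the number of arrays limits the precision. Where all samples of a group were below background, the bright mean was set against the higher of background and the dim signal, as an "at least" fold.

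The genes named were the 15 largest rises and 15 largest falls among called genes whose days did not overlap, the calls in the difference from sham, and the leading genes of each list. Other called list members, and genes marked so, are named after their values were seen. Members and lists were chosen with earlier results of these data known. The alternatives were other thresholds, samples, filters, probe summaries, centring, a replicate block, a one-way analysis of variance and the omission of each sample. Promoters came from RefSeq (GRCh38.p14).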

Additional observations from a re-analysis of the deposited data

Results flagged for a closer look

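The change from day 1 to day 4 differed between 8Gy and sham cultures in 5 genes, by limma's test of the difference itself (adjusted over 11296 genes). AKR1C3 (-1.32, adjusted p = 0.0177) and AKR1C2 (-1.04, adjusted p = 0.0283) rose in sham cultures and were level at 8Gy. CCL20 (2.03, adjusted p = 0.0283), CXCL1 (1.78, adjusted p = 0.0431) and HAS3 (0.77, adjusted p = 0.0431) had the larger value at 8Gy. Without sham day 4 replicate 3 none of the 5 was called. The groups of 3 samples were too small for a search for single outlying samples.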

How the results depend on the processing

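The 8Gy count of 321 became 73 at a fold over 2 and 118 by one-way analysis of variance with Bonferroni-Holm adjustment, and ran from 102 to 516 when 1 sample was left out. The same 2 settings gave 160 and 102 in sham cultures and 114 and 167 at 16Gy. The count of 1 gene between day 6 and day 4 was 0 with only the groups of the contrast, without the trend, with genes over background in all 27 samples, or with the mean of all probes, 13 by analysis of variance, and 0 to 3 with 1 sample left out. The 5 genes that differed from sham became 46 with only the groups of the contrast, 2 without the trend, 2 with genes over background in all 27 samples, 1 with the mean of all probes, and 0 to 30 with 1 sample left out. No setting gave a gene that differed between 8Gy and 16Gy. Over the single genes, 3029 of 3409 values kept their side of the threshold, 304 lost the call and 76 gained it. In 0 of them did a called change take the opposite sign. Changes of sign in genes without a call were not counted, and they occurred, for example in PTGES2 (-0.37 to 0.12 with 1 sample left out). The causes were not tested.

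Replicate numbers are shared by the groups, but the samples of 1 number did not move together between day 1 and day 4 at 8Gy (correlations of 0.108, -0.058 and -0.119), and 1 of 3 correlated best with its own number, so the numbers were not taken as pairs. Between 8Gy and sham samples the same correlations were 0.353, 0.516 and 0 on day 1 and 0.072, 0.26 and 0.227 on day 4. Most of these were positive, so the fit without a replicate block may miss differences from sham. What the numbers stand for is not stated in the labels. Between 8Gy and 16Gy they were -0.171, 0.327 and 0.338 on day 1 and 0.104, 0.197 and 0.317 on day 4. With the replicate block the 8Gy count was 326, the sham count 726 and the 16Gy count 474, the day 6 count 2, and the number of genes differing from sham 44, or 146 with the block within days. The 5 genes called without the block were among both sets. For IL6 the adjusted p of the difference from sham was 0.185 without the block, 0.0511 with it and 0.00333 with it within days, and for PI3 it was 0.113, 9.54e-05 and 3.23e-05. In the same order it was 0.188, 0.0784 and 0.00333 for CSF3 and 0.185, 0.0234 and 0.00247 for PTGS2. CXCL8 was called in none of these fits (0.449, 0.286 and 0.171). IL36B and IL36RN were called only with the block within days. With the block within days 12 of the 44 mitosis genes differed from sham, and 0 did without it.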

Other observations

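Metallothioneins and complement genes are described here after their values were seen. Metallothioneins are small proteins that bind zinc and copper and are induced by metals and glucocorticoids. Of 7 tested, 5 rose at 8Gy, against 1.99% of all genes tested. They were MT1G (0.99 ± 0.18, adjusted p = 0.00161), MT1M (0.98, adjusted p = 0.0262), MT1H (0.97, adjusted p = 0.0216), MT1X (0.78, adjusted p = 0.0297) and MT1F (0.74, adjusted p = 0.0967). MT1E (0.41) and MT2A (0.22) were not called. The medians were 0.78 at 8Gy, 0.32 in sham cultures with 1 called higher, and 0.90 at 16Gy with 5. The MT1 genes are close copies, so their probes may read one another's transcripts.

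Of 10 complement genes tested, 3 rose at 8Gy, against 1.99% of all genes tested. They were C3, the central component of the cascade (1.17, adjusted p = 0.00696), the classical pathway protease C1S (0.93, adjusted p = 0.00763) and CFB of the alternative pathway (0.73, adjusted p = 0.00493). The medians were 0.34 at 8Gy, 0.23 in sham cultures with 1 called higher (C1R, 0.99), and 0.36 at 16Gy with 4.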
